A study of Mus musculus with 9 samples.

Results

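J1 mouse embryonic stem cells treated for 24 h with CHIR99021 were compared with the same cells treated with DMSO, the solvent. The comparison rests on 6 of the 9 arrays of the series, 3 with DMSO and 3 with 3 µM CHIR99021. The other 3 arrays hold cells treated with 1 mM AICAR, a nucleoside that cells convert into an activator of the kinase AMPK, and enter to estimate the spread, to decide which features were tested and to show where the CHIR99021 response differs. J1 is a single line of the 129S4/SvJae strain. The labels describe it as adapted to gelatin, and every group, the controls included, was kept in serum replacement medium with leukaemia inhibitory factor (LIF) at 1000 U per mL. Described here are all genes with a probe that stood well above background on 3 or more of the 9 arrays. These were 26866 of 37074 features on the array, of which 16090 carry a gene symbol. Whether the numbered replicates came from separate cultures is not stated in the labels, so the errors and p-values measure the spread between these arrays, which may be technical.

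CHIR99021 inhibits both forms of glycogen synthase kinase 3, GSK3-alpha and GSK3-beta. In the absence of a Wnt signal these kinases act in a destruction complex with Axin and APC that marks beta-catenin for degradation. When they are inhibited, beta-catenin accumulates, enters the nucleus and binds the TCF/LEF factors, which recognise a short DNA motif and then activate their target genes. In mouse embryonic stem cells GSK3 inhibition favours self-renewal in the naive state, while in the embryo Wnt/beta-catenin signalling drives the primitive streak and the growth of the posterior body. The kinases also act outside the Wnt pathway, on glycogen synthase, from which they take their name, and on many other proteins.

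Levels are the log2 of the processed signal relative to the 75th percentile of the array, so that 0 is the signal at that percentile. Changes are CHIR99021 minus DMSO on the log2 scale, ± the standard error of the limma fit, with 3 arrays per group. The words rose and fell are kept for genes with a Benjamini-Hochberg adjusted p under 0.05 over all features. Of the spots of each of the 6 arrays, 62.8% to 66.2% stood well above background. The SD over the 3 arrays of a group had a median of 0.07 in DMSO and 0.09 in CHIR99021. The 8 markers of mouse embryonic stem cells were well above background on all 6 arrays. Their summed linear level, in multiples of the 75th percentile, was 536 to 554 in DMSO and 524 to 548 in CHIR99021. Dppa5a, the brightest at mean levels of 8.39 in DMSO and 8.32 in CHIR99021, weighs most in this sum. Singly the markers moved in both directions. Esrrb, Zfp42 and Sox2 rose, at 0.73, 0.32 and 0.26. Utf1 and Tdgf1 fell, at -1.22 and -0.60, and Dppa5a, Nanog and Pou5f1 did not pass. The summed level of fibroblast markers, which feeder cells would bring, was 3.23 to 3.44 in DMSO and 3.19 to 3.30 in CHIR99021, with 11 of 13 tested and Postn and Lum not among them. This sum holds changes in both directions. Acta2, Col1a1, Col1a2 and Col5a1 fell, at -0.51, -0.38, -0.48 and -0.29. Pdgfrb and S100a4 rose, at 2.13 and 0.47. For blood and immune markers the summed level was 17.6 to 18.0 in DMSO and 20.3 to 21.6 in CHIR99021, so that the groups did not overlap. Of these 14 markers 7 were tested, of which Cd4, Csf1r and Itgam rose and Cd14 fell, while the pan-leukocyte marker Ptprc was well above background on 1 array of each group. Itgam, the brightest of them, did not pass under 8 of 22 alternatives, with limma adjusted p from 0.0559 to 0.539, and its probes ranged from -0.60 to 0.50. The call of Csf1r was lost without the second DMSO or the second CHIR99021 array (limma adjusted p = 0.0519 and 0.0544). The part of this shift in the rises of blood cell genes named below was not tested. The groups were hybridised on separate slides and scanned separately, so a slide effect and a treatment effect cannot be told apart here.

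Of the 26866 features, 13696 (51.0%) passed the test, 8180 higher (30.4%) and 5516 lower (20.5%). Most of these differences were small. Among the features that passed, 8466 differed by less than 1.5-fold, and 2093 (7.79% of all) differed at least 2-fold, 1033 higher (3.85%) and 1060 lower (3.95%). Among the 16090 genes with a symbol 29.0% rose and 24.9% fell, 3.96% and 4.95% at least 2-fold, with a median change of 0.03. The counts within gene groups below stand against these shares, and a count near them is no result about a group. At the far end the fitted changes leaned upward, with 32 features over 16-fold higher and 5 over 16-fold lower. Counts by size use fitted changes, also for genes not well above background in 1 group, where only a lower bound can be given. S1pr1 and Pax6, with bounds of 7.87-fold higher and 13.6-fold lower, are thus counted as over 16-fold. With the features split by level into 5 classes of equal size, the share that passed was 31.5% in the dimmest, 65% in the middle and 45.3% in the brightest class. In 63.3% of features the 3 DMSO values and the 3 CHIR99021 values did not overlap, and unless another statement is made this was so for each gene named below as having risen or fallen. With scaling to the spike-in controls in place of the 75th percentile 46.1% of the features that passed were higher instead of 59.7%. The split into rises and falls thus depends on the scaling, which moved the median change of all features from 0.07 to -0.01. Among the 16090 genes with a symbol 2500 rose and 3743 fell with spike-in scaling, and 3856 and 4636 with quantile normalization. Group counts given below under these scalings stand against those counts.

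**Figure D1:**
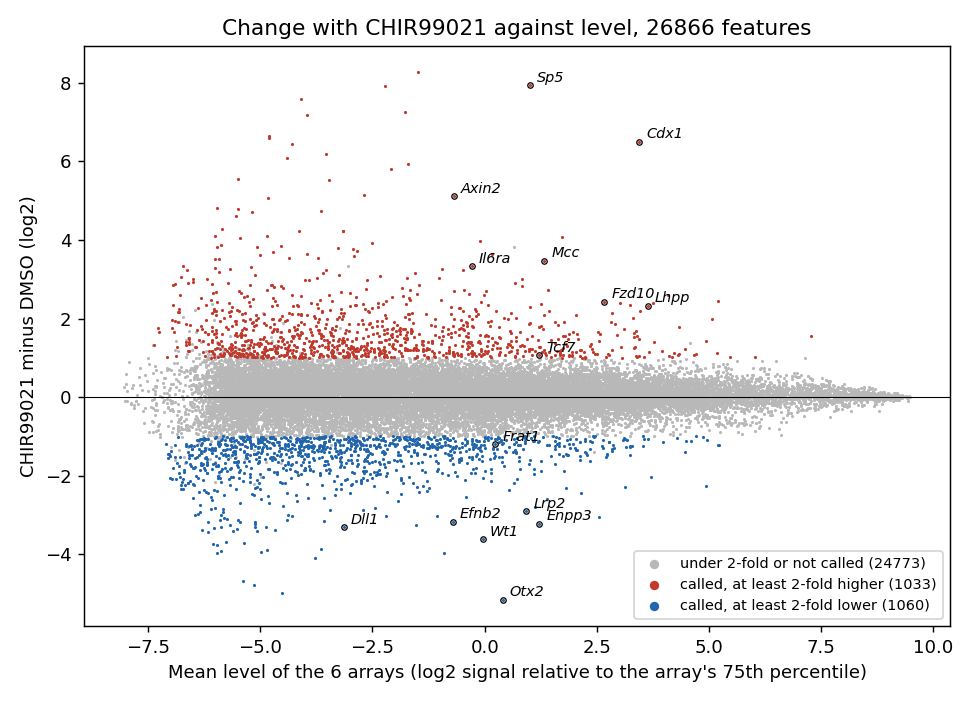
Change with CHIR99021 (log2, y axis) against the mean level of the 6 arrays (log2 relative to the 75th percentile of the array, x axis), one point per feature. Red points are the 1033 features called and at least 2-fold higher, blue points the 1060 at least 2-fold lower, and named genes are circled. Fitted rises over 16-fold outnumber fitted falls of that size.

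Among genes measured on all 6 arrays, the largest rises included known Wnt target genes and regulators of the posterior embryo. Sp5, a zinc finger factor induced by Wnt signals, had levels of -3.09, -2.80 and -3.02 on the DMSO arrays and 4.93, 4.99 and 5.0 on the CHIR99021 arrays, a rise of 7.94 ± 0.07. Cdx1, a homeobox factor that sets posterior identity, went from 0.18, 0.25 and 0.14 to 6.74, 6.68 and 6.67. Axin2, a scaffold of the destruction complex and a feedback inhibitor, had levels of -3.30, -3.26 and -3.18 with DMSO and 1.94, 1.79 and 1.87 with CHIR99021. For each of these genes the arrays of a group lay close together and the groups stood far apart. Less familiar genes rose on a similar scale. Pglyrp1, a secreted protein of antibacterial defence, rose by 5.94 ± 0.14, and Tlx2, a homeobox gene, by 5.82 ± 0.08. Gad1, which makes the transmitter GABA from glutamate, had DMSO levels of -5.40, -5.30 and -5.09 and CHIR99021 levels of -0.22, -0.16 and 0.04.

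The next rises held secreted regulators, a cytokine receptor and cytoskeletal genes. Fst encodes follistatin, which binds and blocks activins, and rose by 3.96 ± 0.07. Ntn1 encodes the axon guidance cue netrin-1 and rose by 3.63 ± 0.05, with levels of -1.58, -1.74 and -1.61 before and 1.96, 2.05 and 1.95 after treatment. Il6ra, the ligand-binding chain of the interleukin-6 receptor, rose by 3.33 ± 0.07, and Mcc, a gene named for its mutation in colorectal cancer, by 3.47 ± 0.09. The forkhead gene Foxd1 and the homeobox genes Msx3 and Nkx6-2 rose by 4.23 ± 0.13, 4.23 ± 0.20 and 3.25 ± 0.06. Among structural genes, Tnni1, the slow skeletal troponin I, rose by 3.93 ± 0.21, Nefm, a neurofilament, by 3.79 ± 0.17, Lcp1, an actin bundling protein of blood cells, by 3.77 ± 0.16, and Lad1, an anchoring filament protein of epithelia, by 3.59 ± 0.09. Genes of muscle, neuron, blood and epithelium thus stood side by side among the largest rises. Changes of dim genes were smaller with normexp background correction, under which 721 features in place of 2093 differed at least 2-fold.

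The largest falls among genes measured on all 6 arrays were in genes of varied function, led by the transcription factor genes Otx2 and Wt1. Otx2, a homeobox factor of the primed epiblast and forebrain, fell by 5.17 ± 0.07. Wt1, the Wilms tumour zinc finger gene, had levels of 1.90, 1.73 and 1.68 with DMSO and -1.88, -1.97 and -1.72 with CHIR99021. Dll1, a ligand of Notch receptors, went from -1.47, -1.44 and -1.52 to -4.79, -4.80 and -4.80. Efnb2, the membrane ligand ephrin-B2, went from 0.95, 0.80 and 0.89 to -2.20, -2.32 and -2.38, although its other probe gave a change of -1.32. Enpp3, a surface enzyme that cleaves nucleotides, fell by 3.23 ± 0.07, Serpinf1, which encodes the secreted protein PEDF, by 3.25 ± 0.06, and Lrp2, the endocytic receptor megalin, by 2.91 ± 0.06. Psmb8, a subunit of the immunoproteasome, fell by 3.17 ± 0.10, Fgf1 by 3.03 ± 0.09, and Actn3, the actinin of fast muscle, by 2.81 ± 0.06. Wt1 was lower still with AICAR, with a CHIR99021 minus AICAR difference of 1.36 (limma adjusted p = 4.48e-06).

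**Figure D2:**
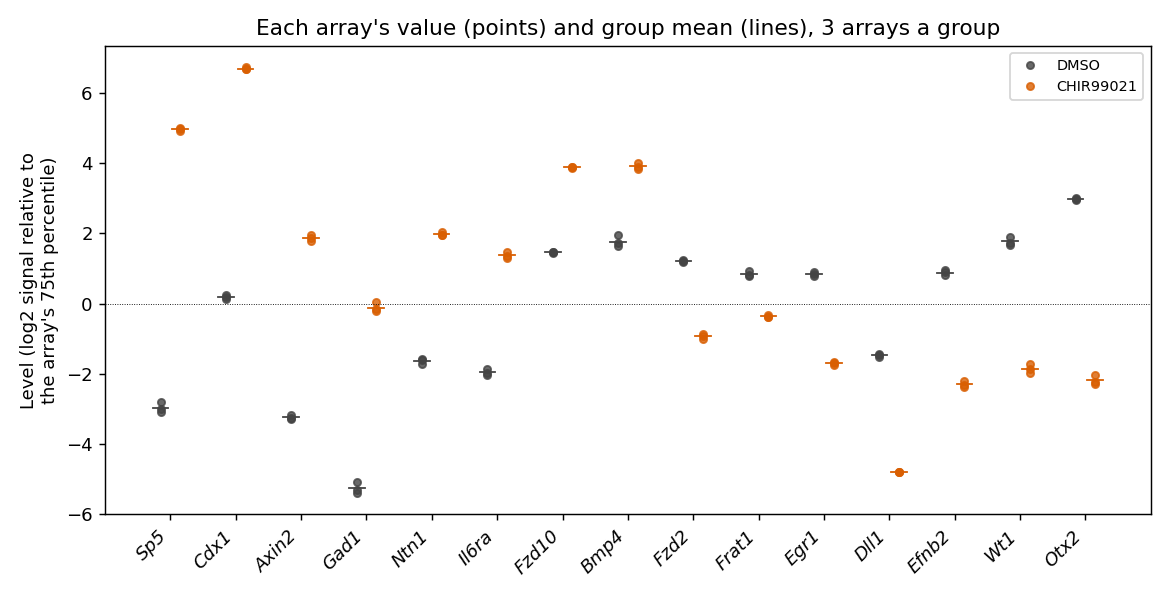
Level on each array (points) and group mean (lines) for 15 genes with DMSO and with CHIR99021, 3 arrays per group, in log2 relative to the 75th percentile of the array. Levels are to be compared within a gene. The groups of every gene shown are separate, and the spread within a group is small against the distance between groups.

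Some genes crossed the detection limit. For these a fold change is given as a lower bound, obtained by comparing the brighter group's mean with the dimmer group's own signal or the lowest signal well above background on each array, whichever is higher. Btla, a receptor of lymphocytes, had levels of -0.30, -0.33 and -0.25 with CHIR99021 and was not well above background on any DMSO array, a rise of at least 55.2-fold. Srarp, a small protein described as a regulator of steroid receptors, was at least 49.7-fold higher, with CHIR99021 levels of -0.67, 0.12 and -0.78. Slc44a5, a gene of the choline transporter-like family, was at least 26.5-fold higher at its brightest probe, while its other probe changed by 0.42. Khdc1a was at least 10.2-fold higher, S1pr1, a receptor of sphingosine-1-phosphate, at least 7.87-fold, and Ido2, an enzyme of tryptophan breakdown, at least 7.54-fold. In the other direction, Cyp11a1, the enzyme that begins steroid synthesis, was at least 7.65-fold lower, the transcriptional corepressor Skor1 at least 7.43-fold and Enpp2, which encodes the secreted enzyme autotaxin, at least 7.28-fold. Cyp11a1 had levels of -2.75, -2.91 and -2.85 with DMSO and was not well above background on any CHIR99021 array.

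Within the Wnt pathway the kinases, beta-catenin and the core of the destruction complex showed little change, while ligands, receptors and feedback inhibitors changed in both directions. Of 19 genes of the destruction complex and its regulators, 2 rose, 4 fell and 13 did not pass (median change 0.00). Ctnnb1, which encodes beta-catenin, had levels of 4.68, 4.65 and 4.68 with DMSO and 4.69, 4.69 and 4.70 with CHIR99021, a difference of 0.02 ± 0.05 (limma adjusted p = 0.721). The targets of the compound, Gsk3a and Gsk3b, differed by -0.11 ± 0.09 and 0.28 ± 0.11 (limma adjusted p = 0.297 and 0.0605). The 3 probes of Gsk3b ranged from -0.06 to 0.28. Apc differed by 0.11 ± 0.09 and Axin1 by 0.06 ± 0.07. The largest falls were in the genes of both Frat proteins, which bind and inhibit GSK3. Frat1 went from 0.81, 0.78 and 0.94 to -0.38, -0.37 and -0.34, a fall of 1.21 ± 0.06, and Frat2 fell by 0.67 ± 0.05. Against AICAR, Frat1 and Frat2 differed by -1.32 and -1.34 (limma adjusted p = 9.85e-07 and 6.16e-07). The dishevelled genes moved apart, with Dvl3 higher by 0.41 ± 0.06 and Dvl1 lower by 0.31 ± 0.06.

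Of 13 Wnt ligand genes tested, 7 rose and 3 fell (median change 0.42). Wnt5b, a ligand linked to cell movement, went from 0.15, -0.00 and 0.05 to 2.70, 2.80 and 2.84, and was also 3.69 higher than with AICAR. As a group the ligand genes were not higher than with AICAR. Of the 13, 3 were higher and 7 lower with CHIR99021, and their median change with AICAR was 1.01. Wnt3, which is needed for the primitive streak, rose by 1.39 ± 0.19 and was well above background on 2 DMSO arrays. Wnt6 and Wnt11 rose by 0.91 ± 0.07 and 0.81 ± 0.11, while Wnt9a fell by 0.62 ± 0.08. Of 4 genes tested among R-spondins and genes of Wnt secretion, 3 rose and 1 fell. Porcn, the enzyme that attaches the lipid of the ligands, had levels of 3.07, 3.00 and 3.06 with DMSO and 4.06, 4.04 and 4.10 with CHIR99021, and Wls, their carrier to the cell surface, rose by 0.93 ± 0.06. Notum, a secreted enzyme that removes the lipid, rose by 0.68 ± 0.05, and the R-spondin gene Rspo1 fell by 0.32 ± 0.05.

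Of 16 genes for receptors of Wnts and R-spondins, 6 rose and 4 fell, and with spike-in scaling 2 rose and 4 fell. Fzd10 went from 1.48, 1.46 and 1.43 to 3.89, 3.87 and 3.89, and Fzd2 in the opposite direction, from 1.18, 1.25 and 1.22 to -1.01, -0.86 and -0.92. The receptor tyrosine kinase gene Ror2, a receptor of Wnt5a, rose by 1.19 ± 0.05. Fzd7 and the R-spondin receptor gene Lgr4 fell by 0.85 ± 0.06 and 0.91 ± 0.14, Fzd5 by 0.46 ± 0.09, and the coreceptor Lrp6 differed by -0.02 ± 0.04. The largest rise and the largest fall of these 16 genes were thus both in Frizzleds.

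The nuclear factors that carry the signal moved apart as well. Tcf7 rose from 0.65, 0.68 and 0.71 to 1.62, 1.91 and 1.71, and Tcf7l1, which acts mainly as a repressor of pluripotency genes in embryonic stem cells, fell from 0.92, 0.76 and 0.84 to -0.24, -0.20 and -0.15. The other members, Lef1 and Tcf7l2, differed by -0.14 ± 0.06 and 0.02 ± 0.09 (limma adjusted p = 0.0780 and 0.845). Lef1 was nonetheless 2.31 higher with CHIR99021 than with AICAR, where its level was 0.08, 0.01 and 0.00. The 3 probes of Tcf7l2 ranged from -0.06 to 0.46. Of 23 antagonists and feedback inhibitors, 12 rose and 9 fell, 7 and 4 of them at least 2-fold (median change 0.33). Besides Axin2, the rises were led by Dkk4 and Dkk1, which block the coreceptors and were well above background on 1 DMSO array each, by Rnf43, a ubiquitin ligase that removes Frizzleds, at 2.78 ± 0.06, by Nkd1, an intracellular inhibitor that binds dishevelled, at 1.81 ± 0.06, and by the secreted Wif1 at 1.72 ± 0.17. The falls were in Sfrp5, a secreted decoy of Frizzled, at -1.79 ± 0.09, in Tmem88 and Dact3, which bind dishevelled, at -1.31 ± 0.09 and -1.27 ± 0.08, and in Shisa3, which holds receptors inside the cell and was at least 3.68-fold lower. Dkk4 had levels of -6.52, -6.12 and -5.89 with DMSO and 1.71, 1.82 and 1.73 with CHIR99021.

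**Figure D3:**
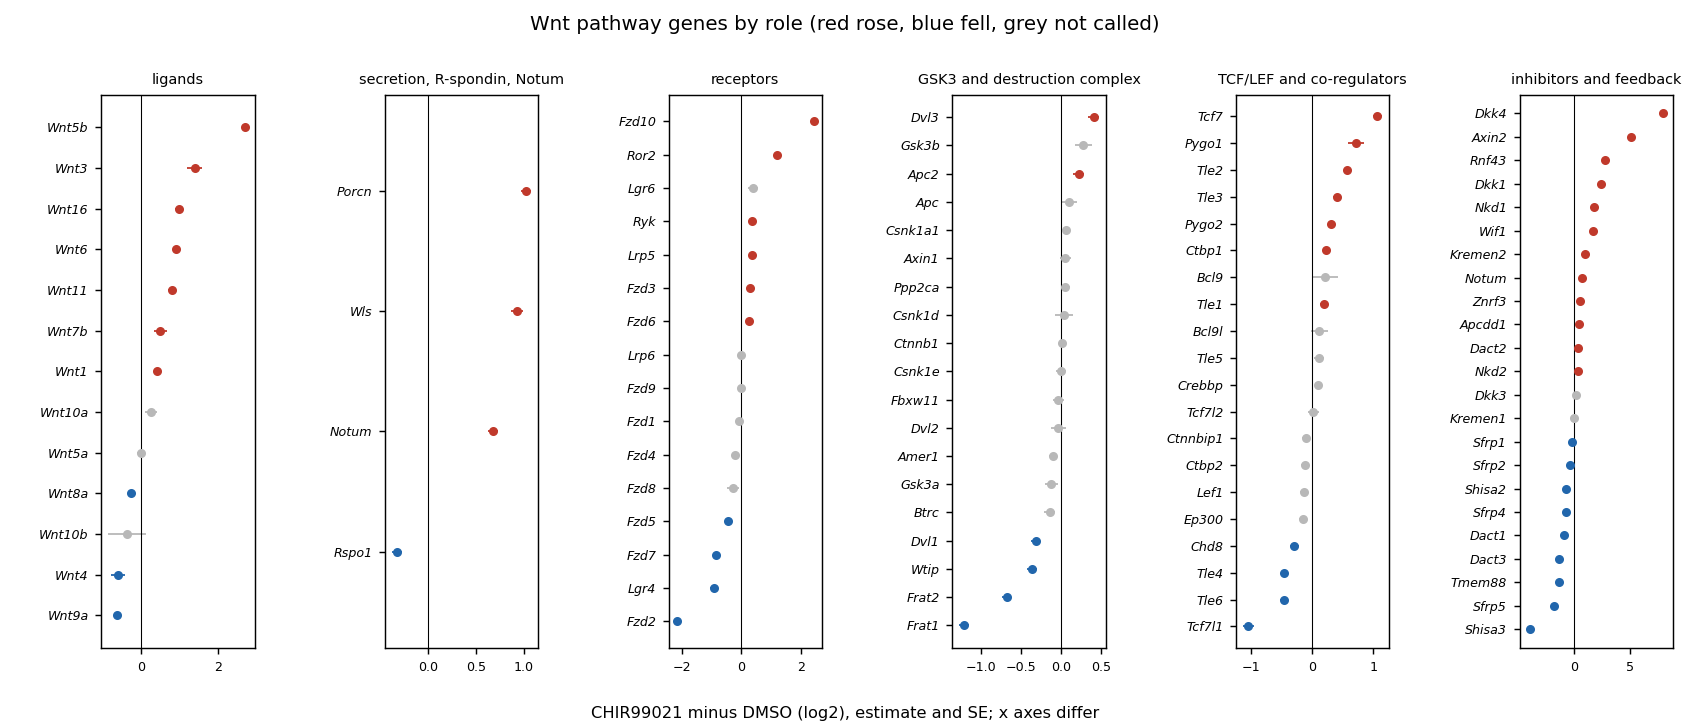
Change with CHIR99021 (log2 estimate and standard error, x axes differ between panels) of the tested Wnt pathway genes by role. Red genes rose, blue genes fell and grey genes did not pass. The kinases, beta-catenin and most of the destruction complex lie near 0. Far from 0 in their panels are the ligand Wnt5b, the receptors Fzd10 and Fzd2, and the inhibitors Dkk4, Axin2 and Shisa3.

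The genes of the posterior growth zone of the embryo were among the groups with the largest rises. Of 25 tested, 14 rose and 6 fell, and 13 of the rises and 1 fall were at least 2-fold (median change 1.18). Some of these genes were tested only because they were bright in 1 group. Of the 17 well above background on all 9 arrays, 9 rose and 5 fell, with a median change of 0.41, and normexp gave a median of 0.47 over the 25. T (Brachyury), the T-box factor of the primitive streak, had levels of 2.67, 2.67 and 2.64 with CHIR99021 and -6.09, -5.48 and -5.27 with DMSO, where 2 arrays were well above background. Cdx2 went from -5.06, -5.36 and -5.85 to 1.94, 1.66 and 1.95, and Cdx4, the third member of its family, was at least 3.27-fold higher. Nkx1-2, a homeobox gene of the progenitors that give rise to spinal cord and body muscle, rose by 3.11 ± 0.24, and Sp8, a relative of Sp5, by 1.18. Not all genes of the zone rose. Fgf8 and Wnt5a differed by -0.21 and 0.01 without passing. Cyp26a1, which clears retinoic acid from the zone, fell by 0.93 ± 0.16, and Hes3 was at least 3.62-fold lower.

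Of 27 tested genes of the Hox clusters, which set position along the body axis, 20 rose and 1 fell, and 18 rose at least 2-fold. The median change was 1.33, also with members below background at their bounds, and 24 of the 27 were higher than with AICAR, against 36.2% of all features. For 12 of the 27 the signal did not stand well above background on all 9 arrays. Among the other 15, 12 rose and 1 fell, with a median change of 1.32, while normexp gave a median of 0.68 over the 27. The rises covered anterior and posterior members alike, with Hoxc4 at 3.08 ± 0.11, Hoxb8, well above background on 2 DMSO arrays, at 3.64 ± 0.33 and Hoxd13 at 1.33 ± 0.11. Hoxc4 had levels of -4.02, -3.73 and -3.85 with DMSO and -0.77, -0.74 and -0.83 with CHIR99021. Hoxd9 and Hoxc9 were not well above background on any DMSO array and were at least 4.06-fold and 3.76-fold higher. The exception was Hoxb13, at the end of its cluster, which fell by 0.26 ± 0.08. Its call was lost when any of the 6 arrays other than the third DMSO array was left out, with adjusted p from 0.0546 to 0.0739. The cofactors with which Hox proteins bind DNA did not follow them: of 9 tested, 2 rose and 5 fell (median change -0.41), led by Meis1, which went from -1.42, -1.49 and -1.62 to -2.78, -2.72 and -2.58.

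The motif bound by TCF/LEF factors was looked for in the promoters of these genes. The windows were the 250 bases before and 50 bases after the first start site listed for each gene in RefSeq (build GRCm38.p6), and 12788 of the 16090 tested genes had one. The 7-base forms CTTTGAT and CTTTGAA, which share their first 6 letters and cannot both match at the same place, were searched on both strands. The 250 bases before the start are printed, 5′ to 3′ on the strand of the gene, for Sp5 (chr2:70474673-70474922, plus strand), T (chr17:8434173-8434422, plus strand) and Srarp (chr4:141436106-141436355, minus strand), which rose strongly and hold a match, and for Axin2 (chr11:108920099-108920348, plus strand), which rose strongly and holds none in this window. Capitals mark the match. In T and Srarp it lies on the other strand, so that the capitals show its reverse complement.
Sp5: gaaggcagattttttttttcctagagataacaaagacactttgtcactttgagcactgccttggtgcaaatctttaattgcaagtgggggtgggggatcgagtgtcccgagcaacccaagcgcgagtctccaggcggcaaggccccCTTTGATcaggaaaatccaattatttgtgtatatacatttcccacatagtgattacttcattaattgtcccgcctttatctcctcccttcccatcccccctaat
T: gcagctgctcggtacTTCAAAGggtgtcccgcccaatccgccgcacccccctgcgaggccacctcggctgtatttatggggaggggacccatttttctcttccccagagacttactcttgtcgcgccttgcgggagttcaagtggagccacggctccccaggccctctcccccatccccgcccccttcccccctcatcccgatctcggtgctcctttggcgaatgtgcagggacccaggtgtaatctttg
Srarp: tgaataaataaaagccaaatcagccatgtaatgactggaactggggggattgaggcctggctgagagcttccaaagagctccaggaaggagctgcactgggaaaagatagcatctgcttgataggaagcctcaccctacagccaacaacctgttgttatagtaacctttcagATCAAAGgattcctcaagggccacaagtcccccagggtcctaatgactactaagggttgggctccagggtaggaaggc
Axin2: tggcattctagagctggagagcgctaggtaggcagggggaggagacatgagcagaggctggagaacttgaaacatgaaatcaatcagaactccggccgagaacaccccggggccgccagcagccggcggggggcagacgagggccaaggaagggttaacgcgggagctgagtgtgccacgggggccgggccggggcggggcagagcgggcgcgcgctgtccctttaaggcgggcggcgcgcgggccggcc
Relative to the start site the match begins at position -104 in Sp5, -235 in T and -78 in Srarp.

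Windows with a match were more frequent the more a gene rose by its fitted change. The classes hold genes with a smaller lower bound, such as Cdx4, at least 3.27-fold higher and counted as at least 8-fold. They made up 7 of 45 (15.6%) among genes that rose at least 8-fold, 47 of 441 (10.7%) among those that rose 2- to 8-fold and 6.89% among those that rose less. The share was 6.46% among genes that did not pass, 5.39% among those that fell less than 2-fold and 4.78%, 29 of 607, among those that fell at least 2-fold. Over all tested genes with a window it was 6.45%, and it was 8.77% over all 27025 genes with a promoter in RefSeq. The median GC content of the windows was 59.7% in the first of these classes, 57.7% in the next and 58% among the strongest falls. These shares are a description of letters in a short window, carry no test, and say nothing of binding, and most genes that rose at least 8-fold had no match.

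Genes that changed strongly often lay next to each other. Placed in the order of the RefSeq gene table, 124 of the 637 symbol-bearing genes that rose at least 2-fold (19.5%) had a directly neighbouring tested gene that also rose at least 2-fold, against 7.58% of all 16090 tested genes. Of the 797 that fell at least 2-fold, 159 (19.9%) had such a falling neighbour, against 9.45% of all. A neighbour that changed at least 2-fold in the opposite direction was found for 5.65% of the genes that rose and 4.39% of those that fell. There were 28 runs of at least 3 neighbours that changed at least 2-fold in the same direction, 15 higher and 13 lower, and the runs named here were chosen after their values were seen. Some are families of related genes, whose members arose by duplication, and in such families a probe may also bind a near-identical copy.

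Other runs joined genes of unrelated function around a strongly induced one. Sp5 was followed by Erich2, at least 4.37-fold higher and not well above background on any DMSO array, and by Gad1, at 5.15 ± 0.26. The genes on either side, Myo3b and Gorasp2, passed with smaller differences of 0.46 ± 0.09 and -0.42 ± 0.08. Cdx1 lay between the amino acid transporter gene Slc6a7, at 2.05 ± 0.13, and Pdgfrb, a receptor of platelet-derived growth factor, which went from -2.69, -2.77 and -2.77 to -0.63, -0.62 and -0.60. Camk2a and the blood marker Csf1r, on either side of this run, passed as well, at 0.81 ± 0.13 and 0.60 ± 0.17. Pdgfrb is also among the fibroblast markers, of which it is the only one that rose at least 2-fold. Nkx1-2 lay among Oat, an enzyme of ornithine metabolism, at 1.42 ± 0.05, Lhpp, a histidine phosphatase, at 2.32 ± 0.05, and Fam53b at 1.91 ± 0.06. The genes beyond them, Gm10584 and Eef1akmt2, also passed, with smaller differences of 0.48 and 0.19.

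The longest runs held 5 genes. In one, Bhmt and Bhmt2, which methylate homocysteine, and Dmgdh, which acts on dimethylglycine, the product of Bhmt, were followed by Arsb, a lysosomal sulfatase, and Lhfpl2. Bhmt went from -3.98, -4.01 and -4.06 to -1.32, -1.22 and -1.28, Bhmt2 and Dmgdh were at least 32.4-fold and 52.8-fold higher, Lhfpl2 rose by 3.73 ± 0.10 and Arsb by 1.14 ± 0.31. The flanking genes Jmy and Scamp1 differed by -0.03 ± 0.10 and -0.26 ± 0.06, of which the latter passed. The other run of 5 was Hoxd13, Hoxd9, Hoxd8, Hoxd4 and Hoxd1, and runs of 4 lay in the Hoxc and Hoxb clusters. Phlda3, Tnni1 and Lad1 formed a run of 3 higher genes. Among the lower runs, the interferon-induced GTPase genes Gbp3, Gbp2b and Gbp2 were at -1.87 ± 0.24, -2.71 ± 0.26 and -2.88 ± 0.11, while Gbp5, next to them, was at 0.83 ± 0.21 and well above background on 2 DMSO arrays. Gbp2b was well above background on 1 CHIR99021 array.

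**Figure D4:**
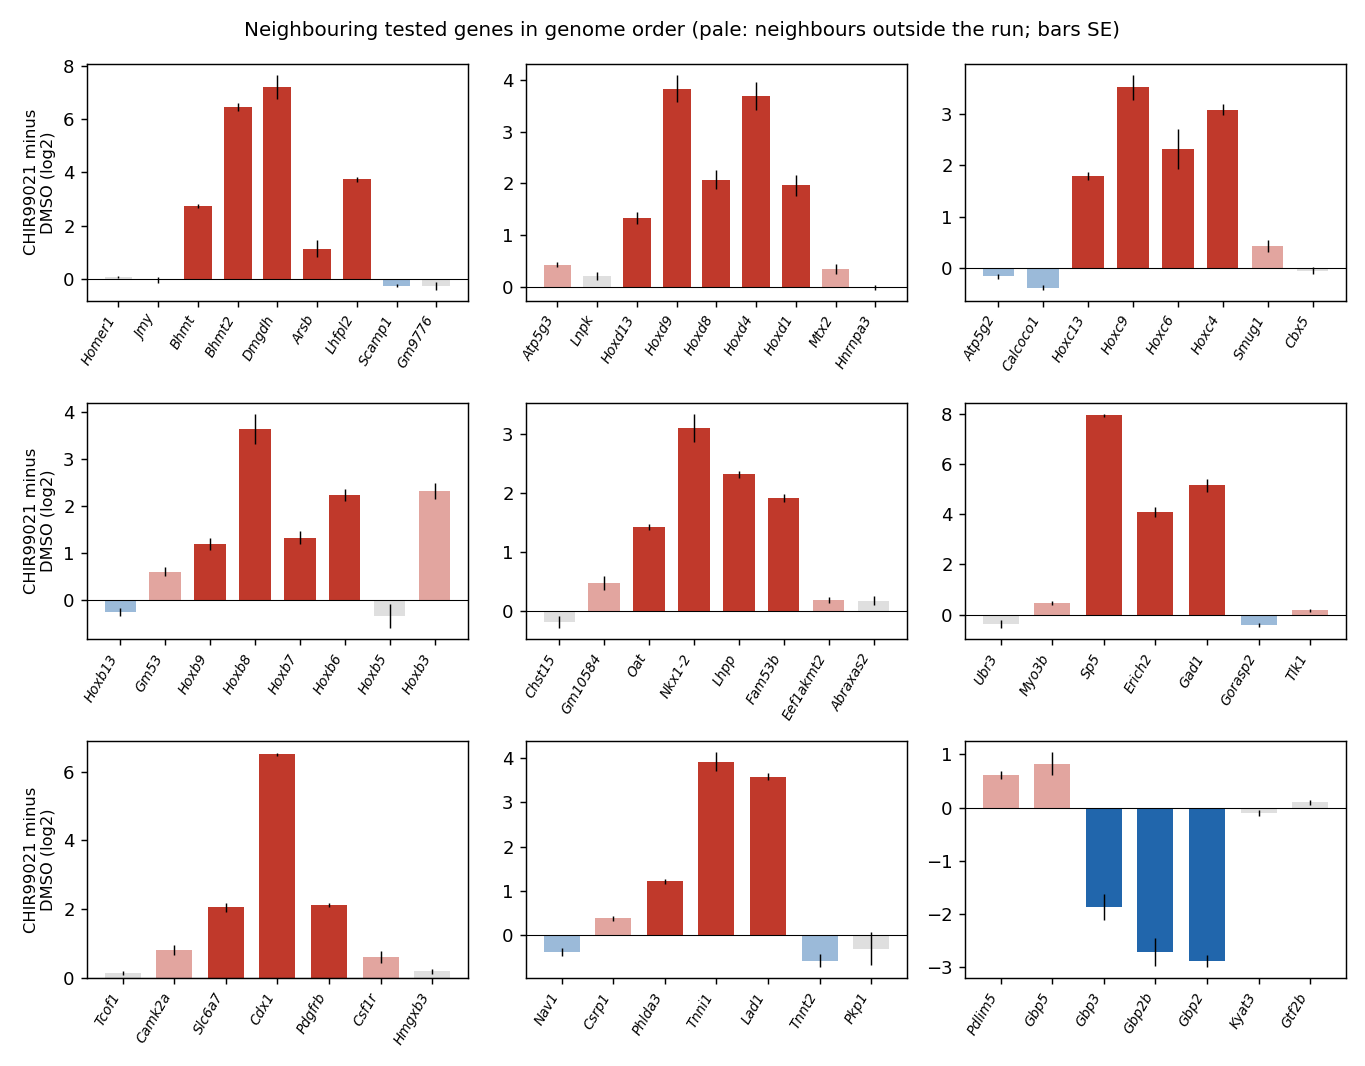
Change with CHIR99021 (log2, bars, with standard errors) of tested genes in genome order at 9 loci. Each panel shows a run of neighbours changed at least 2-fold in the same direction (full colour) and the 2 tested genes on either side where the table has them (pale). Red is higher, blue lower and grey not called. For genes not well above background in DMSO, such as Bhmt2, Dmgdh and Erich2, the bars are fitted values and no bounds. In 8 panels the genes of the run are higher and in the panel of Gbp genes lower.

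Among the signalling pathways of the early embryo, BMP genes rose more often than they fell, while Nodal and its antagonists fell. Of 25 BMP pathway genes, 13 rose and 4 fell, 7 and 1 of them at least 2-fold (median change 0.23). The ligand gene Bmp4 went from 1.96, 1.63 and 1.72 to 3.90, 3.83 and 4.0, and Bmp7 from -0.30, -0.22 and -0.36 to 1.75, 1.71 and 1.65. Targets of the pathway rose, with Id1 at 1.27 ± 0.08, Msx2 at 1.42 and Id3 from 0.79, 0.74 and 0.75 to 2.18, 2.26 and 2.22. Id2, a gene of the same family, fell by 1.08 ± 0.07.

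Of 29 Nodal and activin pathway genes, 11 rose and 13 fell (median change -0.13). The ligand gene Nodal went from 3.84, 3.84 and 3.90 to 2.51, 2.65 and 2.64, and its feedback antagonists Lefty1 and Lefty2 fell by 3.05 ± 0.08 and 1.07 ± 0.07. Foxh1, the DNA-binding partner of its SMADs, fell by 0.97 and the coreceptor gene Tdgf1 by 0.60. The activin antagonist Fst and the receptor gene Tgfbr2 were on the other side, the latter at 1.13. The 13 falls thus included ligand, coreceptor, DNA-binding partner and antagonists of Nodal.

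Genes of FGF and ERK signalling were split. Of 33 FGF ligands, receptors and ERK-responsive genes tested, 10 rose and 14 fell, 2 and 6 of them at least 2-fold (median change -0.02). The immediate early gene Egr1 went from 0.85, 0.80 and 0.89 to -1.66, -1.76 and -1.68, and the phosphatase genes Dusp5 and Dusp6, which switch ERK off, fell by 1.74 ± 0.28 and 0.69 ± 0.06. Etv1 fell by 1.49 ± 0.06, but its relative Etv5 rose by 0.42 ± 0.05. The Sprouty genes, inhibitors that FGF signals induce, also rose, Spry4 from -1.35, -1.31 and -1.23 to 0.49, 0.50 and 0.59 and Spry2 by 0.95 ± 0.04. Egr1 was lower still with AICAR, at -2.53, -2.51 and -2.23.

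In the LIF pathway, which maintains these cells, 6 of 19 genes rose and 7 fell, with 6 and 4 under spike-in scaling. Il6ra had the largest rise, from -2.03, -1.85 and -1.99 to 1.30, 1.34 and 1.48. The receptor genes Lifr and Il6st were at -0.34 and -0.05, the latter not called, Stat3 was at 0.20 (limma adjusted p = 0.0628), and Junb, a target of the pathway, fell by 1.35 ± 0.09.

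Genes of the Notch, retinoic acid and Hippo pathways fell more often than they rose, and those of the Hedgehog pathway were split. In the Notch pathway 15 of 26 fell and 7 rose (median change -0.21). Besides Dll1, the falls included Lfng, which modifies the receptors and was at least 2.17-fold lower, the nuclear factor gene Rbpj at -0.66 ± 0.12, and Dtx4 at -1.10. Hes1, a Notch target that other signals also induce, went in the opposite direction, from -2.68, -2.47 and -2.49 to -0.98, -1.03 and -0.85. In the Hedgehog pathway, 8 of 17 fell and 7 rose (median change 0.05), and its target genes were among the falls. Gli1 went from 1.19, 1.19 and 1.30 to 0.19, 0.28 and 0.11, and Ptch1, the receptor gene that is itself a target, fell by 0.81 ± 0.11. With spike-in scaling 3 Hedgehog genes rose and 8 fell, and with the mean of the probes of each gene 6 rose and 6 fell.

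In retinoic acid signalling 9 of 21 genes fell and 3 rose (median change -0.27). Crabp2, which carries retinoic acid to the nucleus, went from 2.06, 1.95 and 2.26 to 0.01, 0.14 and 0.21, and the receptor genes Rarg and Rara fell by 1.11 ± 0.10 and 0.94 ± 0.06. Aldh1a2, the main enzyme of retinoic acid synthesis in the embryo, rose by 1.08 ± 0.10. In the Hippo pathway 10 of 21 fell and 4 rose, with the YAP targets Ccn2 at -1.05 ± 0.08, Axl at -1.12 ± 0.14 and Ccn1 at -0.65, and Yap1 at -0.00. Eph receptors and ephrins went the other way, with 11 of 19 rising and 5 falling (median change 0.49). Epha4 went from -0.46, -0.58 and -0.51 to 0.62, 0.59 and 0.61, in contrast to the ephrin gene Efnb2.

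**Figure D5:**
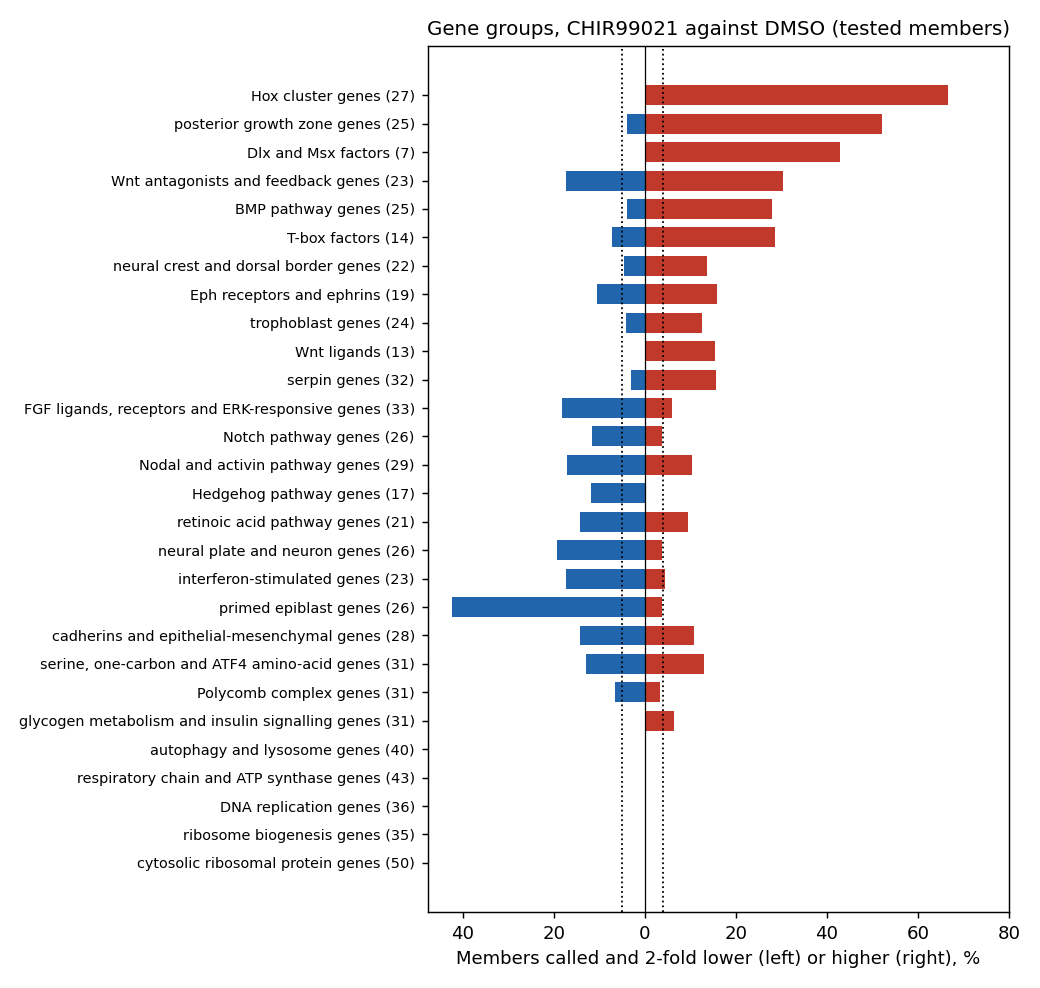
Percent of tested members of 28 gene groups that were called and at least 2-fold higher (red, right) or lower (blue, left) with CHIR99021, with the number of tested members in parentheses. Dotted lines mark the same shares over all 16090 tested genes with a symbol, 3.96% and 4.95%. The Hox genes have the largest share of rises and the primed epiblast genes the largest share of falls, while the 5 groups at the bottom have neither.

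Genes of the anterior streak, endoderm and early mesoderm rose more often than they fell. Of 27 tested, 14 rose and 5 fell, 6 and 4 of them at least 2-fold (median change 0.33), and with spike-in scaling 9 rose and 6 fell. Compared with AICAR, 6 of the 27 were higher and 15 lower with CHIR99021, and their median change with AICAR was 0.72. Lmo2, a factor of blood formation, went from -2.09, -1.96 and -2.24 to -0.17, -0.09 and -0.09. Outside this list, Evx1, a homeobox gene of the late primitive streak, had levels of -1.46, -1.63 and -1.40 with CHIR99021, was not well above background on any DMSO array and was at least 24.0-fold higher. Pcsk6, a protease that activates Nodal, went from 1.71, 1.80 and 1.59 to 3.08, 3.02 and 3.06, while Inhbb, an activin subunit, went from 2.23, 2.16 and 2.29 to 0.84, 0.96 and 0.91. Of 32 serpin genes, a family of protease inhibitors with near-identical copies, 14 rose and 6 fell (median change 0.32), and 8 and 7 with spike-in scaling. Serpinb1a went from -0.87, -0.87 and -0.90 to 1.04, 1.03 and 1.02, and was higher still with AICAR, at 1.32, 1.23 and 1.37.

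Features without a gene symbol rose more often than genes did. Of 3693 features given as chromosome intervals, 1378 rose and 442 fell, with a median change of 0.21, and of 7083 others without a symbol 2130 rose and 1061 fell, with a median of 0.10. The intervals were dim, with a median level of -2.95 against 0.14 for genes with a symbol. The part of their level in this balance was not tested. The tilt was not confined to features without a symbol. Of 1071 olfactory receptor genes on the array 190 were tested, of which 59 (31.1%) rose and 7 (3.68%) fell. Their median change was 0.32, and 29.0% of all genes with a symbol rose and 24.9% fell. Rises of the intervals outnumbered falls under quantile normalization (1171 and 518), spike-in scaling (780 and 451), the authors' matrix (1148 and 517) and normexp (1607 and 343), whereas for genes with a symbol falls were the more frequent under all of these but normexp.

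Transcription factor families differed in how they moved. Of 7 Dlx and Msx homeobox genes 6 rose and 0 fell, Msx3 most, with Dlx2, well above background on 1 DMSO array, at 1.43 ± 0.16, Msx2 at 1.42 and Msx1 at 1.00. Of 18 ETS factors 12 rose and 1 fell, most by less than 2-fold (median change 0.34), and Elf3, an epithelial member, had the largest rise, from -0.47, -0.45 and -0.51 to 1.41, 1.63 and 1.48. With spike-in scaling 5 ETS factors rose and 1 fell. Of 14 T-box factors 8 rose and 3 fell. The 7 Zic and Gli zinc finger genes went mostly down, with Zic2 at -0.98 and Zic5 at -1.02, and 5 in all falling. Among forkhead genes, Foxd1 stood beside Foxb1, at least 2.61-fold higher, and opposite Foxp1, which went from 4.72, 4.77 and 4.68 to 2.61, 2.75 and 2.69 at its brightest probe while its probes ranged from -2.16 to 0.27. Lhx3, a LIM homeobox gene, fell by 2.23 ± 0.11.

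Markers of lineages outside the epiblast did not move as groups in 1 direction. Of 24 trophoblast genes 11 rose and 6 fell (median change -0.06). Cdx2, shared with the posterior genes, Gata2 at 1.27 ± 0.15 and Eomes at 1.15 ± 0.06 were the ones that rose at least 2-fold, whereas Gata3 was at -1.26 ± 0.30, a call lost with normexp (limma adjusted p = 0.159), and the defining markers Elf5, Hand1 and Tpbpa were not among the tested genes. The summed level of the other 2 trophoblast markers, Gata3 and Prl3d1, was low in both groups and did not overlap, at 0.127 to 0.138 in DMSO and 0.145 to 0.164 in CHIR99021. Its part in the changes of trophoblast genes was not tested. Of 26 primitive endoderm genes 7 rose and 9 fell (median change -0.14). Cited1 rose from -0.91, -0.71 and -0.71 to 2.11, 2.21 and 2.08 and Sox17 by 1.22, while the endocytic adaptor gene Dab2 fell by 1.64 ± 0.06 and Gata4 differed by 0.04.

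In the neural list 13 of 26 genes fell and 9 rose, with Sox1 at -1.60 ± 0.07 at its brightest probe and 0.32 at its other, and Pax6 at least 13.6-fold lower. The summed level of the 4 neural markers was 4.80 to 4.94 in DMSO and 3.36 to 3.52 in CHIR99021. Genes of the neural crest and dorsal border rose more often, 9 of 22 against 4 that fell, with the neurotrophin receptor gene Ngfr from 0.99, 0.95 and 1.02 to 3.01, 3.11 and 3.11. Whether such shifts lie in a few cells or in all cannot be told from bulk RNA, where fewer cells of a type and less RNA per cell look alike.

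Genes of cell adhesion and of the transition between epithelial and mesenchymal states moved in both directions. Of 28 tested, 9 rose and 11 fell. Both E-cadherin and N-cadherin rose, Cdh1 from 3.14, 3.11 and 3.16 to 3.60, 3.66 and 3.64 and Cdh2 from -1.05, -0.91 and -1.07 to 0.27, 0.12 and 0.25. Snai1, a repressor of epithelial genes, rose by 1.67 ± 0.07, while Zeb2, another such repressor, fell by 1.52 ± 0.07. The epithelial splicing factors Esrp1 and Esrp2 were at -1.37 ± 0.08 and 1.25 ± 0.19, so that this pair of relatives moved apart. Mmp25, a membrane-bound matrix metalloproteinase, was at least 3.65-fold lower.

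Genes close to the metabolic role of GSK3 changed moderately. Of 31 genes of glycogen metabolism and insulin signalling, 13 rose and 7 fell (median change 0.10). The counts were 10 and 8 with quantile normalization, and 7 and 6 with spike-in scaling (median change 0.02). Ppp1r3c, which brings a phosphatase to glycogen and favours its synthesis, went from -3.17, -3.29 and -2.90 to -1.65, -1.60 and -1.47. Pygl, a glycogen phosphorylase, rose by 1.32 ± 0.10, and Gys1, the glycogen synthase gene and enzyme after which GSK3 is named, fell by 0.93 ± 0.09. Of 8 glucose transporters 6 fell and 1 rose. Slc2a3, the neuronal-type transporter, went from 5.93, 6.04 and 6.10 to 6.86, 7.05 and 6.95, while Slc2a4, the insulin-sensitive transporter, fell by 1.32 ± 0.07 and Slc2a1 by 0.43.

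Of 40 autophagy and lysosome genes, 17 rose and 6 fell, all of them by less than 2-fold (median change 0.19). Lamp2, a lysosomal membrane protein, rose by 0.99 ± 0.08, the cholesterol transfer gene Npc2 by 0.98 ± 0.06 and the protease gene Ctsb by 0.94 ± 0.05, from 3.39, 3.39 and 3.44 to 4.31, 4.34 and 4.38. The genes of the transcription factors that control lysosome formation were split, with Mitf at 0.93 and Tfeb at 0.67 ± 0.09 rising and Tfe3 at -0.42 falling. Among 29 genes of the NRF2 and glutathione response, 9 rose and 9 fell, with Gsta3 at 2.30 ± 0.06 and Gpx2 at 1.60 ± 0.09 against Mgst1 at -1.11.

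Genes of ribosomes, of their biogenesis and of DNA replication changed little as groups against DMSO. Of 50 cytosolic ribosomal protein genes 4 rose and 0 fell, the largest change being 0.27 for Rpl4, and with spike-in scaling none passed. Of 35 ribosome biogenesis genes 6 rose and 1 fell, with a median of 0.06, and with quantile normalization 4 rose and 7 fell. Set against AICAR 34 of the same 35 were higher with CHIR99021, against 36.2% of all features. Their median change with AICAR against DMSO was -0.64, so the difference lay mostly in lower values with AICAR. Of 36 replication genes 9 rose and 6 fell, 1 and 5 with spike-in scaling, and none changed 2-fold.

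Of 35 cell cycle regulators 11 rose and 15 fell (median change -0.04), and 3 changed at least 2-fold. Ccne2, cyclin E2, was higher by 2.30 ± 0.50 and well above background on 1 DMSO array. The related inhibitors of cyclin-dependent kinases Cdkn1a and Cdkn1c moved apart, with Cdkn1a higher by 1.91 ± 0.11 at its brightest probe and 0.39 at its other and Cdkn1c lower by 2.59 ± 0.07. In the Myc network 8 of 17 genes fell and 4 rose (median change -0.18). Mycn went from 4.03, 3.98 and 4.12 to 2.99, 2.98 and 3.14, the antagonist Mxd4 fell by 1.75 ± 0.08 and Mycl rose by 0.92.

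Of 31 Polycomb genes 12 rose and 4 fell (median change 0.13), and 3 changed at least 2-fold. Under spike-in scaling 6 rose and 4 fell. Cbx7, a chromobox subunit of the first Polycomb complex, went from -3.61, -3.86 and -3.66 to -1.71, -1.82 and -1.72. Phf19, an accessory factor of the methyltransferase complex, went from -0.16, -0.12 and -0.08 to -2.01, -1.98 and -2.02, and Phc1 fell by 1.24 ± 0.09. The catalytic subunit gene Ezh2 was at -0.02 and did not pass.

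Direct comparison of the treatments showed where the CHIR99021 response differs from that of AICAR. Of all features 60.8% differed between the treatments, 36.2% higher and 24.6% lower with CHIR99021, and with spike-in scaling 30.7% of those that differed were higher. AICAR against DMSO called 60.5% of features. Against DMSO, 2039 of the 16090 genes with a symbol were called in opposite directions by the treatments and also differed between them. The comparisons with DMSO share their control arrays, so this count is a description. Among those with the largest changes, Mcc was 4.42 higher than with AICAR (limma adjusted p = 3.51e-08) and had levels of -0.22, -0.52 and -0.48 with DMSO, 3.06, 3.08 and 3.05 with CHIR99021 and -1.44, -1.22 and -1.41 with AICAR. Edn1, which encodes the vasoconstrictor endothelin-1, was well above background on all CHIR99021 arrays, at -3.45, -3.35 and -3.16, and on no DMSO array. Dll1 was 3.72 lower with CHIR99021 than with AICAR. The prostacyclin receptor gene Ptgir was not well above background on any CHIR99021 array, and was at least 3.71-fold lower than with DMSO and at least 5.09-fold lower than with AICAR. Cdx2 was not well above background on any AICAR array and was at least 237.8-fold higher with CHIR99021 (limma adjusted p = 3.36e-07).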

How the data were processed

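The 9 deposited scanner files, made with Agilent Feature Extraction 10.7.3.1 per the file headers (10.7 per the submitters' processing notes), give for each spot an intensity on a linear scale. The deposited series matrix holds log2 values by the authors, with a centring that no source used here states, and served only as an alternative. From the processed signal, log2 values minus the 75th percentile of each array over 59305 spots that are not controls were computed. Outlier spots were left out, spots of a probe were averaged, and 37742 of 55681 probes well above background on at least 3 arrays were kept. Accessions matched to the RefSeq gene table (GRCm38.p6, names and gene order only; the files use mm9 per the file headers) named 27235 probes. For each gene the brightest probe was tested. The limma package (3.58.1, R 4.3.3) fitted all 9 arrays by lmFit and eBayes, with Benjamini-Hochberg adjustment over 26866 features, of which 71 had a missing value on some array. The number of arrays limits the precision.

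Genes were named by rule: the 20 largest rises and 20 largest falls measured on all 6 arrays, the 12 and 12 largest by their bound, up to 5 called members a list and direction, the 10 largest changes opposite to AICAR, and a set of named regulators. Genes of neighbouring runs and some list members fall outside it and were chosen after their values were seen. Not every gene the rule picked is described. The members, lists and rule were chosen with earlier results of these data known. The normexp alternative used the median signal of each spot, because the files hold no mean signal, with an offset of 50. Probes of near-identical copies, such as Gbp and serpin genes, are uncertain as to the copy. The fit was tested on simulated data.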

Additional observations from a re-analysis of the deposited data

How the results depend on the processing

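The 13696 features that passed between CHIR99021 and DMSO, the 2093 of them that differed at least 2-fold and the 16328 that passed between CHIR99021 and AICAR stayed within 1.5 times of these counts under every alternative run, except that normexp left 721 with a 2-fold difference (408 higher, 313 lower). The cause was not tested. Leaving out each array in turn gave 11745 to 14027, 2060 to 2108 and 14934 to 16040 features. The share of higher calls, 59.7%, was 46.1% with spike-in scaling, 51.7% with quantile normalization, 51.5% with the series matrix and 67% with no filter on dim probes. Against AICAR it was 59.5%, and 30.7% with spike-in scaling. Arrays with the same replicate number did not deviate together (r of 0.05, -0.04 and 0.01 across features), and the fit with a replicate block called 12711 features, 2080 of them at least 2-fold, and 15682 against AICAR. A slide block could not be run because each slide holds 1 group, and the fit on 6 arrays gives no comparison with AICAR. The direction of 218 of the named genes was followed over the alternatives. None of the 201 called among them changed direction at its tested probe under any alternative that held it. The filter on all 9 arrays held 179 of the 218. Of those not called, 10 changed direction under some alternative. Taken probe by probe, 3 of the called genes had a probe of opposite sign, which passed in Itgam (-0.60) and did not in Foxp1 and Sox1 (0.27 and 0.32). Of 4198 symbols with several probes 1, Prlr, had probes called at least 2-fold in opposite directions. Probes near background set the limit for dim genes, where only a bound can be given.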
